A study of Mus musculus with 45 samples.

Results

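The diet comparison in air set the hearts of mice on a high-fat diet against those of mice on a regular diet, both kept in filtered air. Its members were chosen by title, the 8 arrays named DIO-SC and the 8 named RW-SC, 16 of the 45 arrays of the series. All were male C57BL/6 mice bought at 13 weeks of age, and the labels list each array as 1 biological replicate. Regular weight mice (RW) ate a certified rodent chow with about 5 kcal% fat throughout. Diet-induced obese mice (DIO) were given pellets in which fat supplied 60 kcal% of energy, starting at an age of 6 weeks, and had eaten them for 9 weeks when exposures began. Both groups were 15 weeks old at that point and had nose-only sessions of 5 h with filtered air (SC, the sham control). There were 8 such sessions over 2 weeks, on 5 days in a row and, after 2 days of rest, on 3 more, and were killed the day after the last. The other 4 groups of the series breathed mainstream (MS) or sidestream (SS) cigarette smoke on the same schedule.

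Several features limit these groups as a model of a fatty diet. The diets were different products of different makers, so fat content, other ingredients and obesity cannot be told apart. All mice, the regular diet group included, went through nose-only exposure, and the time of killing and the last meal are not in the labels. The samples are labelled heart, with no chamber named. In RNA from a whole tissue, fewer cells of a type and less RNA per cell cannot be told apart.

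The working heart burns fatty acids, glucose, lactate and ketone bodies, and it switches between them by supply. When fatty acids are plentiful they bind the nuclear receptor PPARα, which turns on genes of fatty acid uptake, carnitine transport and oxidation. Oxidation of fatty acids in turn restrains glucose use, in part through pyruvate dehydrogenase kinases, which switch off the entry of pyruvate into the citric acid cycle. Heat shock proteins are chaperones that fold and rescue other proteins, and their genes are driven by the factor HSF1 through short repeated elements in their promoters.

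The array values are log2 intensities, so a difference of 1 is a doubling of signal. Of 12393 genes on the array, 9295 passed a filter on low signal and were tested with limma, with Benjamini-Hochberg adjustment over all of them and a threshold of 0.05. The labels call the mice of a group biological replicates. Array medians were even, at 6.20 to 6.24 throughout the series. Cardiomyocyte genes were among the brightest, with Myh6, the main heavy chain of myosin in the adult mouse heart, at 14.37 to 14.42 in the regular diet group and 14.36 to 14.46 in the high-fat group. Its difference was 0.01 (SE 0.02), and limma's adjusted p was 0.749. RNA quality, read from the 3′ minus 5′ signal of Gapdh, was 0.23 to 0.32 on the regular diet and 0.26 to 0.40 on the high-fat diet (exact permutation test, two-sided p = 0.035, adjusted over 3 measures 0.105). For Actb the same measure differed by -0.03 (exact permutation p = 0.459).

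The high-fat diet went with many small shifts and a few large ones. Past the threshold were 1882 of the 9295 genes tested, or 20.2%. Of these, 643 (6.92%) were higher and 1239 (13.3%) lower on the high-fat diet. These shares are the background for every count of list members in air given below. The lean towards lower calls depends on scaling: 34.2% of the calls were higher as deposited, 51% after a further quantile normalization and 53.8% with each array centred on its median. The typical called gene moved little, by a median of 0.22 when higher and -0.18 when lower, against a median standard error of 0.06. Only 16 genes rose and 24 fell by at least 1.5-fold, together 0.43% of those tested. In 375 genes (4.03%) the 8 arrays of one diet did not overlap the 8 of the other, with the high-fat group above in 132 (1.42%) and below in 243 (2.61%).

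Among genes of fatty acid use, the clearest rises were in those that carry fatty acids into mitochondria and in the switch that spares glucose. Pdk4, the kinase that inactivates pyruvate dehydrogenase, had levels of 9.57, 9.87 and 10.28 (lowest, median and highest of 8) on the regular diet and 11.56, 11.67 and 12.16 on the high-fat diet. Every high-fat heart lay more than 1 log2 unit above every regular diet heart. The difference was 1.85 (SE 0.18), a 3.62-fold rise with limma's adjusted p = 3.07e-10. Within the pyruvate dehydrogenase list of 9 tested members, Pdk1, a second such kinase, also rose by 0.26 (SE 0.06, adjusted p = 0.00179). Pdk2, a kinase of the same family, fell by 0.20 (adjusted p = 0.0368), and Pdhb, a subunit of the complex itself, fell by 0.13 (adjusted p = 0.000313).

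**Figure D1:**
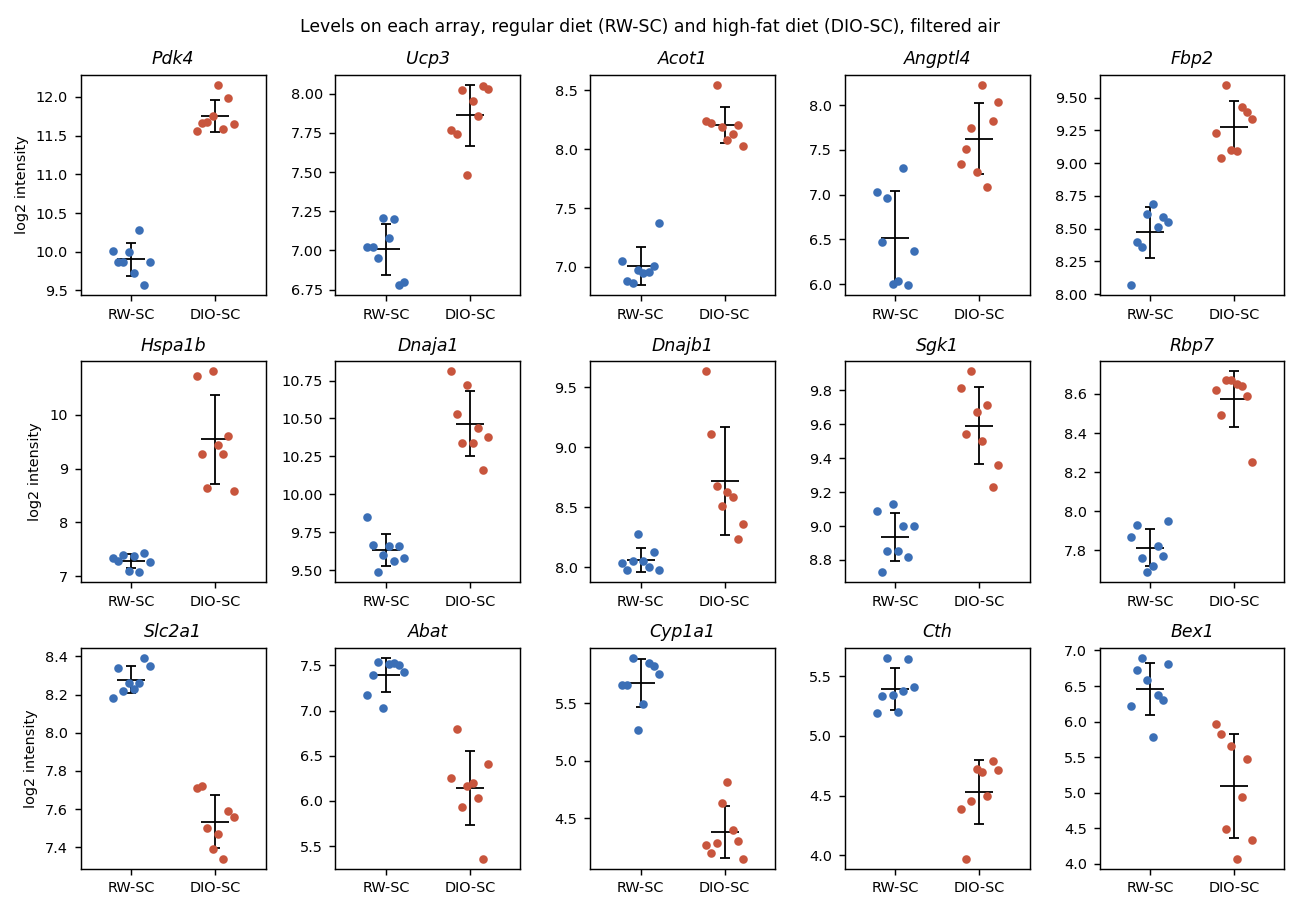
Levels of 15 genes on each of the 16 arrays (y axes, log2 intensity, a separate scale per gene), RW-SC in blue and DIO-SC in red, 8 arrays a group; the bars are the mean and 1 SD. Pdk4, Hspa1b and Slc2a1 show no overlap between the diets, while for Angptl4 and Dnajb1 the lowest high-fat arrays (7.09 and 8.24) lie below the highest regular diet arrays (7.30 and 8.28).

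Of the 8 tested genes of the carnitine shuttle, 7 rose and 0 fell, against 6.92% and 13.3% of all genes tested. The median difference of the list was 0.29, beside -0.02 over all genes. Slc25a20, the carrier that moves acylcarnitines across the inner mitochondrial membrane, had the smallest p-value of the list. It ran from 10.74 to 10.90 (median 10.83) on the regular diet and from 11.22 to 11.46 (median 11.31) on the high-fat diet, a rise of 0.53 (SE 0.04, limma adjusted p = 4.67e-13). Cpt2, the transferase on the inner membrane, rose by 0.49 (adjusted p = 3.2e-11). So did Mlycd, which removes the inhibitor malonyl-CoA (0.37), Slc22a5, the carnitine importer of the cell membrane (0.30), and Crat (0.28), Cpt1a (0.26) and Crot (0.24), which are acyltransferases. The groups did not overlap for the 7 that rose, in Crat only just (both at 10.26 after rounding).

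Uptake genes moved less uniformly, with 4 of 13 tested members higher and 0 lower. Cd36, the main fatty acid transporter of the cardiomyocyte membrane, rose from 12.63 to 12.80 (median 12.72) to 12.99 to 13.09 (median 13.03), by 0.32 (SE 0.03, limma adjusted p = 3.07e-10). Fabp3, which binds fatty acids in the cytosol, rose by 0.19 (SE 0.02, adjusted p = 4.1e-10). Both sit near the top of the intensity range. Angptl4, a secreted inhibitor of lipoprotein lipase, had the largest rise of the list. Its levels were 5.99, 6.42 and 7.30 on the regular diet and 7.09, 7.62 and 8.23 on the high-fat diet, so the groups overlapped slightly. On the regular diet it was highest in mice 1, 3 and 6 (7.03, 6.96 and 7.30). These mice also had the highest fat cell signal of their group, as given below. The difference was 1.10 (SE 0.26), or 2.15-fold, with limma's adjusted p = 0.00175.

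Inside mitochondria, 11 of 18 genes of β-oxidation rose and 1 fell, with a list median of 0.16. Decr1, which handles unsaturated fatty acids, rose by 0.45 (SE 0.04), Acaa2, the last enzyme of the spiral, by 0.42 (SE 0.04), and Etfdh, which passes its electrons to ubiquinone, by 0.36 (SE 0.04). Hadhb rose by 0.30, Acadl by 0.25 and Acadvl by 0.24. For these 6 genes the groups did not overlap, and limma's adjusted p was at most 7.94e-07. Echs1, an enoyl-CoA hydratase of the same pathway, went the other way and fell by 0.12 (adjusted p = 0.00674).

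Peroxisomal lipid oxidation had 7 of 15 tested members higher and 1 lower. Catalase (Cat), which destroys the hydrogen peroxide that peroxisomes make, had levels of 10.64, 10.74 and 10.82 on the regular diet and 11.05, 11.29 and 11.50 on the high-fat diet. It rose by 0.54 (SE 0.06, limma adjusted p = 1.11e-09). Pex11a, which divides peroxisomes, rose by 0.51 (SE 0.04, adjusted p = 1.84e-11). Pecr, a reductase of fatty acid elongation, fell by 0.16 (adjusted p = 0.0222).

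Thioesterases, which split acyl-CoA back into fatty acid and CoA, had 3 of 11 members higher and 0 lower. Acot1 lay at 6.86, 6.96 and 7.37 on the regular diet and at 8.03, 8.20 and 8.55 on the high-fat diet. That is a 2.30-fold rise (SE 0.12 on the log2 scale), with limma's adjusted p = 2.3e-10. Acot2, its mitochondrial relative, had levels of 7.17, 7.26 and 7.37 against 7.98, 8.12 and 8.38, and rose by 0.89 (SE 0.09, adjusted p = 6.15e-10). Acot3 rose by 0.36. These paralogs are close in sequence, and whether their probes cross-hybridize was not tested. Ucp3, an uncoupling protein of muscle mitochondria, had levels of 6.78, 7.02 and 7.21 against 7.48, 7.91 and 8.05. It rose by 0.86 (SE 0.14, or 1.81-fold, limma adjusted p = 2.41e-05) with no overlap.

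Among 14 receptors and cofactors of the PPAR, ERR and PGC-1 group, which act on these genes, 0 rose and 4 fell, against 6.92% and 13.3% of all genes tested. By those shares a count of 0 in a list of this size is near the background. Ppara itself fell by 0.18 (SE 0.06, limma adjusted p = 0.0345), Lpin1, a coactivator that also makes diacylglycerol, by 0.32, Nrip1, a corepressor, by 0.36, and Esrrb by 0.30. Ppargc1a, which encodes PGC-1α, differed by 0.03 (adjusted p = 0.856) and Ppard by -0.02 (adjusted p = 0.87).

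Lipid storage was divided over all arrays, with 4 of 16 members higher and 4 lower, against 6.92% and 13.3% of all genes tested. Plin5, which coats lipid droplets next to mitochondria, rose from 9.17 to 9.43 (median 9.24) to 9.66 to 10.01 (median 9.81), by 0.53 (SE 0.07, limma adjusted p = 9.73e-08). Plin4, Mgll and G0s2 rose by 0.29, 0.23 and 0.26. Dgat1 and Dgat2, which make triglyceride, fell by 0.34 and 0.19, and Plin3 and Bscl2 by 0.23 and 0.34. The lower calls depended on the arrays of high fat cell signal, which are given below. Without these 6 arrays 4 members were higher and 0 lower, with a list median of 0.13. Leaving out only those of the regular diet gave 6 and 1. With the white fat list mean as a covariate the counts were 7 and 3. The part of fat tissue in these falls was not tested. Gpam, which takes the first step of glycerolipid synthesis, rose by 0.57 (SE 0.07, adjusted p = 4.41e-08).

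Of 20 tested genes of glucose transport and glycolysis, 5 fell, 0 rose and 15 did not pass, against 13.3% lower and 6.92% higher over all genes. The 5 were both glucose transporters named here, 2 hexokinases and an enolase. Slc2a1, the glucose transporter GLUT1, had levels of 8.18, 8.26 and 8.39 on the regular diet and 7.34, 7.53 and 7.72 on the high-fat diet. Each high-fat heart lay below each regular diet heart, and the difference was -0.75 (SE 0.07), a 1.68-fold fall with limma's adjusted p = 3.2e-11. Its 3 probe sets gave -0.75, -0.67 and -0.46. Slc2a4, the insulin-responsive transporter GLUT4, fell by 0.24 (SE 0.04, adjusted p = 4.41e-05). The hexokinases Hk1 and Hk2, which trap glucose in the cell, fell by 0.23 and 0.26, and Eno3, the muscle enolase of glycolysis, by 0.17. For these 5 genes the diets did not overlap, beside 2.61% of all genes with the high-fat group wholly below.

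Fbp2, the muscle fructose bisphosphatase, which runs against glycolysis, had levels of 8.07, 8.53 and 8.69 on the regular diet and 9.04, 9.29 and 9.60 on the high-fat diet. It rose by 0.80 (SE 0.09), or 1.75-fold, with limma's adjusted p = 2.17e-08 and no overlap. Glycogen genes had 2 of 15 members lower, Gbe1, the branching enzyme, by 0.20 and Pygl, the liver form of glycogen phosphorylase, by 1.30. Pygl varied widely on the regular diet (5.26 to 8.49), and its fall is given with the fat cell genes.

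Insulin signalling had 3 of 23 members higher and 5 lower, against 6.92% and 13.3% of all genes tested. Akt1, a kinase that carries the insulin signal, fell from 8.72 to 9.08 (median 8.81) to 8.42 to 8.60 (median 8.46), by 0.35 (SE 0.05, limma adjusted p = 5.65e-07). Irs1, the docking protein below the insulin receptor, fell by 0.32 (adjusted p = 0.00298), Akt2 by 0.19, Pik3ca by 0.19 and Igf1r by 0.19. Pik3r1, the regulatory subunit of PI3 kinase, rose by 0.37 (adjusted p = 0.00272), Trib1 by 0.24 and Grb10 by 0.12.

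In breakdown of branched-chain amino acids, 5 of 17 tested genes fell and 0 rose, beside 13.3% and 6.92% of all genes. Abat, which degrades GABA and β-alanine and is listed with valine breakdown, had the largest fall. Its levels were 7.03, 7.46 and 7.54 on the regular diet and 5.36, 6.18 and 6.80 on the high-fat diet. It fell by 1.24 (SE 0.14), or 2.37-fold, with limma's adjusted p = 7.04e-09 and no overlap. Bckdhb, a subunit of the dehydrogenase that commits these amino acids to oxidation, fell by 0.35 (SE 0.05, adjusted p = 5.67e-07) and Acadsb by 0.25. Of 5 tested genes of ketone body metabolism 3 fell and 1 rose. Bdh1 and Oxct1, mitochondrial enzymes that prepare ketone bodies for burning, fell by 0.64 (SE 0.12, adjusted p = 0.000141) and 0.13 (SE 0.03, adjusted p = 0.000922), and Aacs, which uses a ketone body for lipid synthesis, by 0.38 (adjusted p = 0.0423). Acat1, which takes the last step of ketone body burning, rose by 0.16 (SE 0.03, adjusted p = 0.000682).

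The machinery further down changed little. In the respiratory chain and ATP synthase, 3 of 40 genes rose and 3 fell, and differences ran from -0.13 to 0.08. The citric acid cycle had 1 of 19 lower and 0 higher, with Idh1, a cytosolic member, down by 0.17 (limma adjusted p = 0.0453). Ribosomal proteins of mitochondria had 10 of 36 members lower and 1 higher, but only 2 lower after quantile normalization and 3 with each array centred. The median difference of the list was -0.06. Mitochondrial import and dynamics had 8 of 25 lower and 1 higher, among them Timm23 (-0.14), Timm50 (-0.21), Mfn1 (-0.13) and Mfn2 (-0.14); the lower count was 4 and 5 under those 2 scalings.

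**Figure D2:**
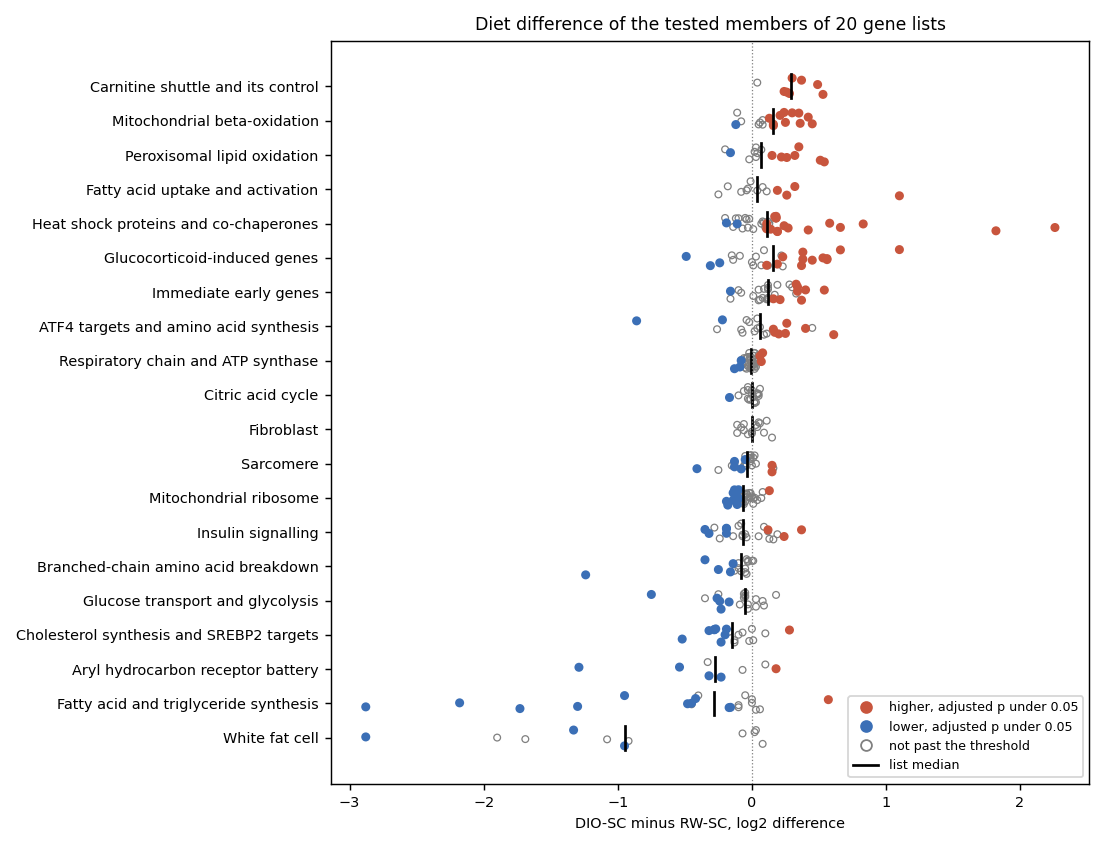
Difference DIO-SC minus RW-SC (x axis, log2) of each tested gene in 20 lists (rows); red and blue points passed the adjusted p threshold, open points did not, and the black tick is the list median. The carnitine shuttle lies wholly right of 0 with a median of 0.29, while white fat cell genes and fatty acid synthesis genes reach -2.88.

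Genes of fat synthesis had the largest falls of the comparison, in genes that fat cells also express strongly. Scd1, which makes monounsaturated fatty acids, had levels of 8.05, 11.21 and 12.81 on the regular diet and 7.30, 7.69 and 9.43 on the high-fat diet, a difference of -2.88 (SE 0.69, limma adjusted p = 0.00245). Fasn, fatty acid synthase, had levels of 7.65, 9.93 and 11.55 against 6.70, 7.22 and 8.91, a difference of -2.18 (SE 0.58, adjusted p = 0.00596). Both genes overlapped between diets, and the regular diet hearts alone spanned more than 3 log2 units in each. Acly, which supplies cytosolic acetyl-CoA, ran from 8.67 to 11.24 (median 9.95) against 8.38 to 9.09 (median 8.60), a difference of -1.30 (SE 0.27, adjusted p = 0.000598). Elovl6, a fatty acid elongase, differed by -1.73 (adjusted p = 0.013), and Thrsp, a lipogenic factor, by -0.95 (adjusted p = 0.0476). In the list, 10 of 20 members fell and 1 (Gpam) rose, with a median of -0.28.

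Fat cell markers leaned the same way. The 11 tested markers of white fat cells had 3 lower (Scd1, Retn and Thrsp) and 0 higher, with a median of -0.95. The mean of the list, relative to all arrays of the series, ran from -0.94 to 1.39 on the regular diet and from -1.16 to 0.43 on the high-fat diet, highest in the regular diet mice 1, 3 and 6. Adiponectin (Adipoq), a hormone made by fat cells, was at 6.09, 9.06 and 11.21 against 4.63, 6.70 and 9.84, a difference of -1.90 (SE 0.93) that did not pass (adjusted p = 0.144). Leptin (Lep), another such hormone, was below the filter in both groups, at 3.68 to 3.94 and 3.64 to 4.65. Ucp1, the defining gene of brown fat, ranged from 4.36 to 10.53 on the regular diet and from 4.56 to 9.19 on the high-fat diet (adjusted p = 0.363).

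Without the hearts of highest fat cell signal these falls shrank, by different amounts. Which of them still passed the threshold depended on whether hearts of 1 diet or of both were left out. Leaving out regular diet mice 1, 3 and 6, which had the highest white fat list means (chosen after the data were seen), Scd1 differed by -1.85 (limma adjusted p = 0.0979), Fasn by -1.22 (0.196) and Acly by -0.59 (0.0721), none past the threshold. The synthesis list then had 2 members higher and 2 lower, with a median of -0.14. The white fat list itself holds Scd1, Retn and Thrsp, and these mice also had the highest Scd1 and Fasn of their group. Leaving them out therefore lowers the regular diet means of such genes by the choice itself, and cannot show what fat tissue contributed.

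Leaving out also the 3 such high-fat mice, 2, 5 and 8, Scd1 differed by -2.54 (limma adjusted p = 0.0468), Acly by -0.77 (0.0426) and Fasn by -1.86 (0.0729). Without these arrays Elovl6 (-1.22, adjusted p = 0.184), Tkt of the pentose phosphate pathway (-0.98, 0.114), Pygl (-0.82, 0.205), resistin or Retn (-0.93, 0.208), Aldh1l1 of folate metabolism (-0.47, 0.208), the acute phase protein Orm1 (-0.32, 0.611) and Thrsp (-0.50, 0.401) no longer passed. Pcx, pyruvate carboxylase, still did (-0.63, adjusted p = 0.00707, from -0.87 over all arrays). The synthesis list had 2 members higher and 4 lower in this setting, in place of 1 and 10. With the mean of 5 fat cell genes as a covariate, also chosen after the data were seen, Scd1 differed by -1.47 (adjusted p = 8.72e-07) and Fasn by -0.99 (adjusted p = 5.35e-05). The synthesis list then had 1 member higher and 8 lower, with a median of -0.12. With the white fat list mean as a covariate, which was planned, these list counts and this median were the same. That list holds Scd1 and Thrsp, so these genes were in part adjusted for themselves.

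For 6 other genes of large change the values without these 6 arrays were close to those over all arrays. Pdk4 differed by 1.90, Hspa1b by 2.52, Slc2a1 by -0.81, Abat by -1.43, Cyp1a1 by -1.22 and Cth by -0.81, each past limma's threshold. The part of fat tissue in any of these differences was not tested.

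**Figure D3:**
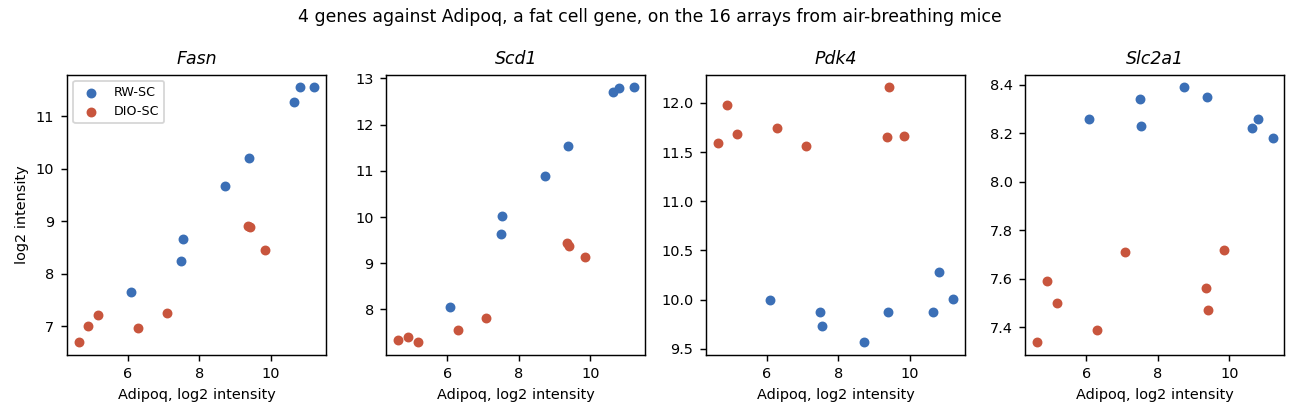
Levels of Fasn, Scd1, Pdk4 and Slc2a1 (y axes, log2 intensity) against Adipoq, a fat cell gene (x axes, log2 intensity), on the 16 arrays, RW-SC in blue and DIO-SC in red. Fasn and Scd1 climb with Adipoq within each diet, whereas Pdk4 and Slc2a1 do not overlap between the diets.

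Cholesterol synthesis, which shares its SREBP factors with fat synthesis, had 8 of 18 members lower and 1 higher, with a median of -0.15. Idi1, an isomerase of the isoprenoid steps, fell from 6.18 to 6.87 (median 6.62) to 5.89 to 6.26 (median 6.03), by 0.52 (SE 0.11, limma adjusted p = 0.000975). Cyp51 fell by 0.32, Msmo1 by 0.28, Sc5d by 0.28, Pmvk by 0.27 and Fdps by 0.19, while Hsd17b7 rose by 0.28. The factors Srebf1 and Srebf2 differed by -0.10 (adjusted p = 0.393) and 0.00 (adjusted p = 0.97). Without the 6 arrays of high fat cell signal, 2 of these members were lower and 0 higher.

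The largest rise of the comparison was in the inducible heat shock protein HSP70, which 2 neighbouring genes, Hspa1a and Hspa1b, encode. The 250 bases before each gene start are shown here because the 2 sequences are nearly one and because both hold a pair of heat shock units, GAA and TTC facing each other, in capitals. They come from RefSeq's GRCm38.p6 assembly, each written 5′ to 3′ on the minus strand, at chr17:34959239-34959488 for Hspa1b and chr17:34972157-34972406 for Hspa1a.
Hspa1b: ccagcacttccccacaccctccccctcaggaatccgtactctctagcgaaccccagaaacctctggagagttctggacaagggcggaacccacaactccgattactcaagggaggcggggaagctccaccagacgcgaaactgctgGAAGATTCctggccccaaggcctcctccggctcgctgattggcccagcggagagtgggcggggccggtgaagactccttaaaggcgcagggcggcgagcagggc
Hspa1a: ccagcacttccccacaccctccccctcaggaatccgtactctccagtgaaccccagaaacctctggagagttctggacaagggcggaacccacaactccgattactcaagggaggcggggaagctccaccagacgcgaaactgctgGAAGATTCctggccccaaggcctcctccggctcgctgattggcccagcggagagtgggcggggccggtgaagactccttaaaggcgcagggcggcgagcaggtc
They differ at 3 of 250 positions (98.8% identical), and the pair begins 104 bases before the start in both. The transcripts are also nearly alike, so the array may not tell the genes apart.

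Hspa1b had levels of 7.08, 7.31 and 7.43 on the regular diet and 8.59, 9.36 and 10.81 on the high-fat diet. The lowest high-fat heart lay 1.16 above the highest regular diet heart, and the high-fat group alone spanned more than 2 log2 units, highest in mice 1 (10.72) and 4 (10.81). The difference was 2.26 (SE 0.24), a 4.80-fold rise with limma's adjusted p = 2.44e-09, and the 3 probe sets gave 2.26, 2.14 and 2.29. Hspa1a had levels of 5.95, 6.15 and 6.37 against 7.05, 7.76 and 9.37 and rose by 1.82 (SE 0.22, or 3.52-fold, adjusted p = 4.73e-08). Without high-fat mice 1 and 4, left out after the data were seen, Hspa1b rose by 1.85 (adjusted p = 1.63e-08).

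Other chaperones rose with HSP70, by less. Dnaja1, an HSP40 partner that feeds clients to HSP70, had levels of 9.49, 9.63 and 9.85 on the regular diet and 10.16, 10.41 and 10.81 on the high-fat diet. It rose by 0.83 (SE 0.09, or 1.78-fold, limma adjusted p = 7.04e-09) with no overlap. Dnajb1, another HSP40, had levels of 7.98, 8.04 and 8.28 against 8.24, 8.61 and 9.63, which overlap, and rose by 0.66 (SE 0.12, adjusted p = 0.000131). Hsp90aa1, the inducible HSP90, rose by 0.42 (SE 0.11, adjusted p = 0.00379), Hspd1, the mitochondrial HSP60, by 0.27 (adjusted p = 6.2e-08), and Hspa8, the constitutive HSP70, by 0.18 (adjusted p = 0.000313). Dnaja2 and Bag1 fell by 0.19 and 0.11.

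In the whole list, 17 of 36 chaperones and co-chaperones rose and 2 fell, against 6.92% and 13.3% of all genes tested, with a median of 0.12. Without high-fat mice 1 and 4 the counts were 13 and 2. The chaperones of the endoplasmic reticulum did not move as a group: 1 of 25 rose (Hsp90b1, by 0.14), 1 fell (Selenos, by 0.22), and Hspa5, the ER counterpart of HSP70, differed by -0.04 (adjusted p = 0.679).

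Promoters were searched for heat shock elements in the 250 bases before the gene start, in the 30 list members that the RefSeq table holds. An element of 3 units (GAA and TTC in turn, each 2 bases from the next, on either strand) stood before 2 of the 13 higher members, Hspd1 and Hspe1, and 1 of the 15 that did not pass, against 0.514% of all 27025 promoters in the table. A window around the 2 overlapping elements of Hspd1, at chr1:55088034-55088101 on the minus strand of GRCm38.p6, shows how such units line up, with the matched bases in capitals.
Hspd1: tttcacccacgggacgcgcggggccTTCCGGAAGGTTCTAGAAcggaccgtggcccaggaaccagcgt
A shorter pair, GAANNTTC or TTCNNGAA, was looked for after that result. Each pattern reads the same on the other strand and is part of the 3-unit element. The pair stood before 7 of the 13 higher members, 0 of the 2 lower ones and 5 of the 15 others. It stood before 14.5% of all promoters. Among the 7 were Hspa1a, Hspa1b and Dnaja1. The stretches before Hspa1a and Hspa1b are nearly identical but were counted separately. Whether those before Hspd1 and Hspe1 overlap was not examined. These counts of members are therefore not counts of independent promoters. A match describes the letters only and is no evidence of binding.

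Genes of other stress pathways moved in part. Among 21 targets of ATF4 and enzymes of amino acid synthesis, 7 rose and 2 fell. Atf4, the factor of the integrated stress response, ran from 9.23 to 9.35 (median 9.33) on the regular diet and from 9.44 to 9.68 (median 9.60) on the high-fat diet, a rise of 0.26 (SE 0.04, limma adjusted p = 9.12e-07) without overlap. Mthfd2, a mitochondrial enzyme of folate metabolism, rose by 0.61 (SE 0.07, adjusted p = 3.23e-08), and its second probe set gave 1.41. Atf3 rose by 0.40, Aldh18a1 by 0.25 and Ddit3 by 0.17.

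Cth, the last enzyme of cysteine synthesis, fell against that trend. Its levels were 5.19, 5.36 and 5.65 on the regular diet and 3.97, 4.60 and 4.79 on the high-fat diet. The difference was -0.86 (SE 0.10), a 1.82-fold fall with limma's adjusted p = 5.81e-08. All 8 high-fat arrays lay below 4.90, the mean under which genes were left out, so they are close to background, where a fold tends to be understated.

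The list of 26 glucocorticoid-induced genes had 12 members higher and 3 lower, with a median of 0.16. Sgk1, a kinase that glucocorticoids and insulin both act on, had levels of 8.73, 8.93 and 9.13 on the regular diet and 9.23, 9.61 and 9.91 on the high-fat diet. It rose by 0.66 (SE 0.09, or 1.58-fold, limma adjusted p = 1.25e-06) with no overlap. Fkbp5, a co-chaperone of the glucocorticoid receptor, rose from 7.09 to 7.60 (median 7.26) to 7.43 to 8.28 (median 7.82), by 0.53 (SE 0.14, adjusted p = 0.00494). Tsc22d3, which encodes the glucocorticoid-induced leucine zipper, rose by 0.38 (adjusted p = 0.000405), Cebpb by 0.38 (adjusted p = 7.18e-05) and Lcn2 by 0.45 (adjusted p = 0.0173). The rise of Tsc22d3 was uneven, with high-fat mice 1, 2 and 3 at 10.15, 10.35 and 10.19. High-fat mice 7 and 8 were at 9.57 and 9.81, beside 9.72 and 9.70 in regular diet mice 7 and 8. Mt2, a metallothionein of the same list, fell by 0.49 (adjusted p = 0.00554), Rgs2 by 0.31 and Glul by 0.24. Angptl4 and Pik3r1 are in this list and in the uptake and insulin lists. Without the 6 arrays of high fat cell signal the counts were 7 and 0.

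Immediate early genes had 8 of 29 members higher and 1 lower. Jun, a subunit of the factor AP-1, rose from 8.21 to 8.55 (median 8.30) to 8.48 to 9.24 (median 8.90), by 0.54 (SE 0.08, limma adjusted p = 5.89e-06). Ier3 rose by 0.37, Ier5 by 0.34, Sik1 by 0.34 and Klf4 by 0.33. Fos and Egr1, which rise within minutes of a stimulus, differed by 0.33 (SE 0.20, adjusted p = 0.258) and -0.08 (adjusted p = 0.732). Among 23 hypoxia targets 7 rose and 4 fell, against 6.92% and 13.3% of all genes tested. P4ha1, a collagen prolyl hydroxylase, rose by 0.48 (SE 0.07, adjusted p = 5.84e-06), Egln3, an oxygen sensor, by 0.43 and Vegfa, the vessel growth factor, by 0.31. Hif1a fell by 0.22, and the other 3 that fell were Slc2a1, Hk1 and Hk2.

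The aryl hydrocarbon receptor senses planar aromatic compounds, such as those of smoke and some food constituents, and turns on Cyp1a1. In these hearts, which had met no smoke, 4 of the 8 tested genes of its battery fell on the high-fat diet and 1 rose, with a median of -0.27. Cyp1a1 had levels of 5.27, 5.70 and 5.89 on the regular diet and 4.15, 4.30 and 4.82 on the high-fat diet, where every array lay below 4.90. It fell by 1.29 (SE 0.12), or 2.44-fold, with limma's adjusted p = 9.96e-11 and no overlap. Ahrr, a repressor that the receptor itself induces, ran from 5.47 to 6.15 (median 5.70) against 5.00 to 5.57 (median 5.16) and fell by 0.54 (SE 0.12, adjusted p = 0.00117). The receptor gene Ahr fell by 0.32 (SE 0.08, adjusted p = 0.00484) and Tiparp, another of its targets, by 0.23 (adjusted p = 0.00477).

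Cyp1b1 differed by -0.33 (adjusted p = 0.103) and Arnt, the receptor's partner, by 0.10 (adjusted p = 0.209). The 1 that rose was Nfe2l2, which encodes NRF2 (0.18, adjusted p = 0.000308). Nqo1, a target of both factors, differed by -0.07 (adjusted p = 0.538). Of 30 NRF2 targets and glutathione genes, 3 rose and 3 fell. Counts of the receptor battery were the same (1 higher, 4 lower) without the 6 arrays of high fat cell signal.

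The core of the receptor's response element, GCGTG or CACGC on the other strand, stood in the 250 bases before the start of Cyp1a1, Ahrr and Tiparp, the 3 lower members with a promoter in the table. The windows are shown because these 3 genes carry the result, with the core in capitals. They lie at chr9:57697534-57697588 (plus strand), chr13:74292332-74292463 (minus strand) and chr3:65528252-65528306 (plus strand) of RefSeq's GRCm38.p6.
Cyp1a1: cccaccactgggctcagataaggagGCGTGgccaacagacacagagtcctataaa
Ahrr: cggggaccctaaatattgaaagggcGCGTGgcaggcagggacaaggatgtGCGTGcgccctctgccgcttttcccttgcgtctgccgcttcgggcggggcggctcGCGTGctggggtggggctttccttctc
Tiparp: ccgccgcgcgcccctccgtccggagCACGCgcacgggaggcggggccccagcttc
This short core is common: it stood before 30.9% of all promoters and 49.8% of those of the genes tested, and before 2 of the 3 members that did not pass. For the fatty acid oxidation lists, a PPAR element, AGGTCA repeated after 1 base with 1 mismatch allowed in each copy, on either strand, stood before 1 of 23 higher members, Cd36, and 2.31% of all promoters.

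Among genes outside these lists, Bex1, a small protein of neurons and muscle, had the largest fall. Its levels were 5.78, 6.49 and 6.89 on the regular diet and 4.07, 5.20 and 5.97 on the high-fat diet, which overlap slightly. It fell by 1.37 (SE 0.24), or 2.59-fold, with limma's adjusted p = 5.64e-05. Rbp7, a retinoid-binding protein of the heart's vessels, rose from 7.69 to 7.95 (median 7.79) to 8.25 to 8.67 (median 8.63), by 0.76 (SE 0.08, adjusted p = 2.28e-09). Hsd17b11, a lipid droplet dehydrogenase, rose from 9.81 to 9.93 (median 9.87) to 10.37 to 10.75 (median 10.53), by 0.66 (SE 0.06, adjusted p = 2.06e-10). Neither of these rises had any overlap.

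Bcl6, a repressor of transcription, rose by 0.76 (SE 0.13, adjusted p = 4.5e-05) with some overlap (6.95 to 7.82 against 7.60 to 8.30). Rsrp1 rose by 0.65 (SE 0.10, adjusted p = 6.43e-06). Srsf5, a splicing factor, fell by 0.57 (SE 0.06, adjusted p = 1.11e-09), Dcxr, a sugar reductase, by 0.53 (adjusted p = 3e-11), Tnnt1, the slow muscle troponin T, by 0.54 (adjusted p = 3.94e-07) and Tuba8, a tubulin, by 0.44 (adjusted p = 4.6e-06), each without overlap. Ifitm1, an interferon-induced membrane protein, fell by 0.61 (SE 0.08, adjusted p = 1.65e-07), also without overlap. Neat1, a long noncoding RNA of nuclear paraspeckles named here after its value was seen, fell by 0.77 (SE 0.11, adjusted p = 8.18e-07).

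Structural genes of the heart moved by small amounts. Their counts stand beside 6.92% higher and 13.3% lower over all genes tested. Among 26 sarcomere genes 2 rose and 5 fell (3 and 2 fell under the 2 other scalings), with Myom2, which links thick filaments in the M-band, down from 11.26 to 11.90 (median 11.67) to 10.94 to 11.32 (median 11.21), by 0.41 (SE 0.10, limma adjusted p = 0.00244). Titin (Ttn) rose by 0.15. Of 22 natriuretic peptide and hypertrophy genes 0 rose and 1 fell (Mef2c, by 0.17). Nppa differed by -0.18 (SE 0.36, adjusted p = 0.756), Nppb by -0.26 (adjusted p = 0.255) and Myh7, the fetal myosin, by -0.25 (adjusted p = 0.35).

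Calcium cycling had 1 of 19 higher and 2 lower, near the 6.92% and 13.3% of all genes tested. Rrad, a brake on calcium channels, ran from 10.70 to 11.17 (median 10.85) against 9.91 to 10.80 (median 10.39) and fell by 0.54 (SE 0.11, adjusted p = 0.000548). The fall was uneven: high-fat mice 1 and 2 were at 9.93 and 9.91, and mice 7 and 8 at 10.62 and 10.80. Regular diet mice 7 and 8 were at 10.70 and 10.90. The reason for this spread was not tested. Sodium and potassium channels had 1 of 15 higher and 4 lower, among them Kcne1 (-0.41, adjusted p = 0.0318) and Kcnip2 (-0.30, adjusted p = 0.0173), which shape repolarization. Collagens and their processing had 2 of 35 higher, both prolyl hydroxylases (P4ha1 and P4ha2), and 1 lower (Col8a1), and Col1a1 differed by -0.03 (adjusted p = 0.899).

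Few inflammation genes passed the threshold. Of 23 chemokines, cytokines and acute phase genes 1 rose (Lcn2) and 2 fell (Orm1, by 1.02 over all arrays, and Rela, by 0.10), and of 22 interferon genes 0 rose and 1 fell (Ifi35, by 0.19). MHC class II had 0 of 6 past the threshold, with a median of -0.39, the list mean reaching 0.82 on the regular diet and 0.14 on the high-fat diet.

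Markers of most other cell types did not separate the diets. Past the threshold were 0 of 15 fibroblast markers, 0 of 12 atrial, 0 of 5 red blood cell, 0 of 5 T cell and 0 of 4 B cell markers. Of 11 macrophage markers 1 fell (Cd14, by 0.23), and of 14 endothelial markers 1 rose (Cldn5, 0.25) and 1 fell (Aqp1, by 0.23). Smooth muscle and pericyte markers had 3 of 13 lower, Pdgfrb by 0.18, Cspg4 by 0.17 and Kcnj8 by 0.16, and ventricular cardiomyocyte markers 3 of 15, Mybpc3 by 0.13, Myl3 by 0.08 and Myl2 by 0.05. Both counts depend on scaling, with 1 and 1 lower after quantile normalization and 1 and 0 with each array centred. Of 8 nerve and Schwann cell markers 2 rose (Dbh, by 0.33, and Sox10, by 0.18), with a list median of -0.03, and 0 did without regular diet mice 1, 3 and 6. Single arrays stood apart in lymphocyte genes: regular diet mouse 1 in B cell genes and high-fat mouse 2 in T cell genes. Of the core clock, 1 of 18 rose (Per2, 0.31, adjusted p = 0.00992) and 2 fell (Rora and Csnk1e, each by 0.15). Arntl, Dbp and Nr1d1 differed by -0.03, -0.07 and -0.04, and none of the 3 passed.

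The same diet contrast in other mice, those that breathed smoke, shares no array with the air comparison. Under mainstream smoke (8 RW-MS and 6 DIO-MS arrays) 984 genes (10.6%) passed, 5.14% higher and 5.44% lower on the high-fat diet. Under sidestream smoke (7 RW-SS and 8 DIO-SS arrays) 3030 (32.6%) passed, 19.7% higher and 12.9% lower. Of the 643 genes higher on the high-fat diet in air, 189 were also called higher under mainstream smoke (29.4% of the air list and 39.5% of the mainstream list) and 4 were called lower. Of the 1239 lower genes, 322 were called lower there (26% and 63.6%) and 3 higher.

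Under sidestream smoke, 246 of the genes higher in air were called higher (38.3% of the air list and 13.4% of the sidestream list), and 146 were called lower. Of the genes lower in air, 207 were called lower (16.7% and 17.3%) and 95 higher. Across all genes tested, which are not independent replicates, the correlation of the 2 diet differences was 0.59 for mainstream and 0.28 for sidestream smoke. In all 3 comparisons 156 genes were higher and 120 lower.

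**Figure D4:**
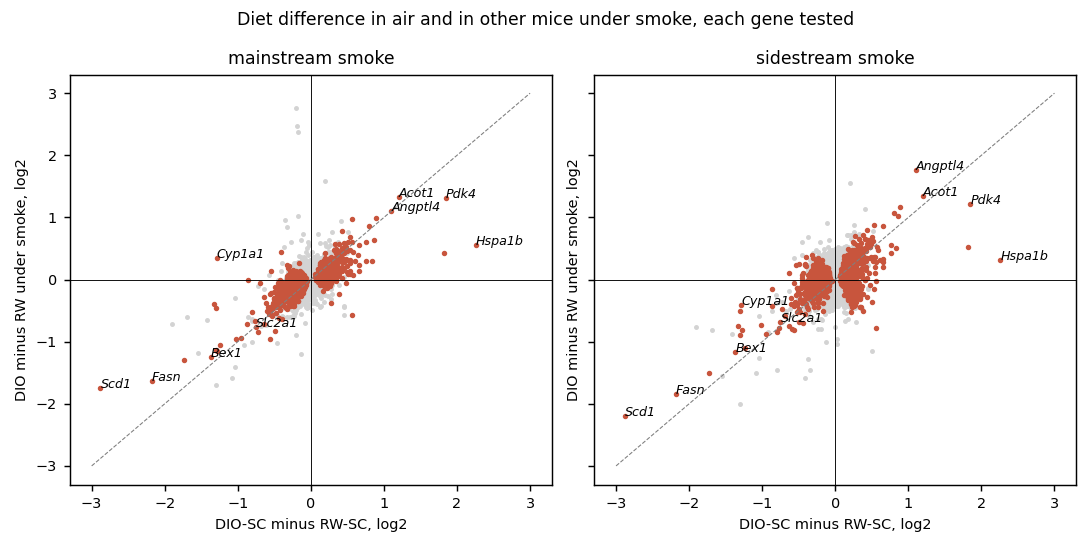
Diet difference of each of 9295 genes in air (x axes, DIO-SC minus RW-SC, log2) against that in other mice under mainstream or sidestream smoke (y axes, DIO minus RW, log2); red points passed in air and the dashed line marks equal differences. Pdk4, Acot1, Slc2a1 and Bex1 lie on the same side in each panel, while Hspa1b (2.26 in air) lies at 0.55 and 0.32 under smoke.

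Several of the genes that moved most in air also passed under both smokes, while the lists of fat and cholesterol synthesis had fewer lower calls there. Slc2a1 differed by -0.76 and -0.69 under mainstream and sidestream smoke, beside -0.75 in air. Acot1 differed by 1.33 and 1.34, Pdk4 by 1.31 and 1.21, Fbp2 by 0.86 and 1.07, Abat by -1.05 and -1.10, and Bex1 by -1.24 and -1.16. Each of these passed limma's threshold in both, with adjusted p-values of at most 0.000915. Of the 8 carnitine shuttle genes, 7 rose under mainstream smoke (against 5.14% of all genes) and 8 under sidestream smoke (against 19.7%). Fatty acid synthesis, with 1 higher and 10 lower in air, had 2 and 1 under mainstream and 3 and 5 under sidestream smoke. Its median was -0.12 and -0.11 there, beside -0.28 in air. The mean of Scd1 was still lower on the high-fat diet, at 8.78 against 10.54 (mainstream) and 8.75 against 10.95 (sidestream). For Fasn the means were 7.53 against 9.17 and 7.62 against 9.47. Cholesterol synthesis, with 1 and 8 in air, had 0 and 1 and then 1 and 4, with medians of -0.03 and -0.09. Of all genes tested, 5.44% were lower under mainstream and 12.9% under sidestream smoke.

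The test of the difference between the diet effects picked out other genes. It called 21 genes (0.226%) for mainstream smoke, with the diet difference above that in air in 0.151% and below it in 0.0753%. For sidestream smoke it called 2641 (28.4%), 18.3% above and 10.1% below, but 1543 after quantile normalization and 1027 with the red blood cell list as a covariate. Hspa1b was called in both. Its high-fat mean was 9.54 ± 0.83 (SD, n = 8) in air, 7.98 ± 0.66 (n = 6) in mainstream and 7.77 ± 0.26 (n = 8) in sidestream smoke, while the regular diet means stayed between 7.28 and 7.45. The diet difference was smaller than in air by 1.71 (contrast -1.71, limma adjusted p = 0.0144) and 1.95 (contrast -1.95, adjusted p = 0.000179), and under smoke it did not pass (adjusted p = 0.183 and 0.342). The chaperone list as a whole, with 17 of 36 higher and 2 lower in air, had 4 and 1 under mainstream and 16 and 2 under sidestream smoke. Higher over all genes were 6.92%, 5.14% and 19.7%, and the list median was 0.12, 0.05 and 0.13.

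The diet difference of Cyp1a1 was also tested against that in air. The high-fat mean was 4.38 ± 0.23 in air, 6.20 ± 0.23 in mainstream and 5.13 ± 0.31 in sidestream smoke (SD, n = 8, 6 and 8), and the regular diet means were 5.67, 5.85 and 5.53. The contrast with air was 1.63 (limma adjusted p = 6.5e-08) for mainstream and 0.88 (adjusted p = 0.000377) for sidestream smoke; under sidestream smoke the diet difference was still -0.41 (adjusted p = 0.01). The contrasts of Ahr were positive too and passed in both (limma adjusted p = 0.0256 and 0.000115). Its diet differences under smoke were 0.24 (adjusted p = 0.0833) and 0.39 (adjusted p = 0.000747). Under sidestream smoke Ahr was thus higher on the high-fat diet, while Cyp1a1 was lower.

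Cth was low in the high-fat group in air alone, at 4.53 ± 0.27, against 5.29 to 5.44 in the other 5 groups. Its contrasts were 0.86 (limma adjusted p = 0.0027) and 0.71 (adjusted p = 0.000816). Cebpb turned: it rose by 0.38 with the diet in air and fell by 0.24 (adjusted p = 0.0276) under mainstream and by 0.51 (adjusted p = 4.46e-07) under sidestream smoke, with contrasts of -0.61 (adjusted p = 0.000831) and -0.89 (adjusted p = 1.07e-07). Of the glucocorticoid list, 2 members were higher and 5 lower under mainstream smoke and 2 higher and 8 lower under sidestream smoke, beside 12 and 3 in air. The shares over all genes were 5.14% and 5.44%, 19.7% and 12.9%, and 6.92% and 13.3% in turn, so the counts are not on one scale. The list median was 0.00, -0.06 and 0.16.

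**Figure D5:**
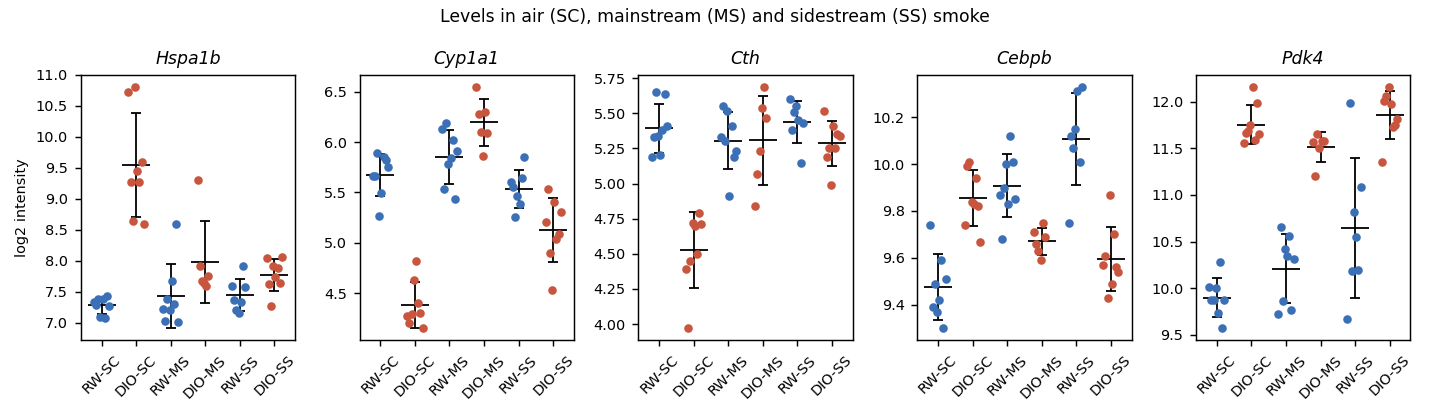
Levels of Hspa1b, Cyp1a1, Cth, Cebpb and Pdk4 (y axes, log2 intensity) on each array of the 6 groups (x axes), regular diet in blue and high-fat diet in red; the bars are the mean and 1 SD. The DIO-SC mean is the highest of the 6 for Hspa1b (9.54) and the lowest for Cyp1a1 (4.38) and Cth (4.53). Single arrays of other groups overlap DIO-SC for Hspa1b and Cyp1a1 but not for Cth. Pdk4 is higher on the high-fat diet in air and under each smoke.

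Nr1d1, a repressor of the clock, differed between the diets by -0.04 in air and by 0.61 and 0.43 under the 2 smokes. Its contrasts were 0.65 (limma adjusted p = 0.0027) and 0.47 (adjusted p = 0.00212). The regular diet means were 7.27 in air, 6.37 in mainstream and 6.13 in sidestream smoke, and the high-fat means 7.23, 6.98 and 6.56. Both diets were thus lower under smoke than in air, the regular diet more so. Rgs9, Kap, Erp44 and Mrs2 had the smallest adjusted p-values for sidestream smoke after Cebpb, with contrasts of -0.60, -0.85, 0.30 and 0.39.

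Most genes with several probe sets gave one answer. Of 776 called genes with more than 1 probe set above the filter, all probe sets of 555 had the same sign. The largest spreads among called genes were in Mthfd2 (0.61 and 1.41), Aacs (-0.38, 0.13 and -0.66), Bik (-0.30, -0.73 and -0.25), Sox4 (-0.49 to -0.01 over 6 probe sets) and Scaf11 (-0.13, 0.34, -0.18 and 0.04).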

How the data were processed

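Total RNA of 45 mouse hearts was hybridized to 1 Affymetrix array each. The deposited values are log2 expression per probe set, made with RMA per the submitters' processing notes, whose version, like any scan date, is not given in the sources used here. In 1 place the labels disagree: the growth text ends with an LPS exposure, whereas titles and treatment text name smoke and air and were followed. Arrays have no read depth; their number limits precision.

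Probe sets of 1 gene, named by the array's annotation and RefSeq identifiers (20351 of 20380 matched), were used, each gene being read from its probe set of highest mean. Genes with a mean below 4.90, the lowest 25%, were left out, and probe sets without a single gene had a separate fit. A model with 1 mean per group, over all 45 arrays, was fitted in limma 3.58.1 (R 4.3.3; lmFit and eBayes, two-sided), with Benjamini-Hochberg adjustment over 9295 genes. SE is from this fit. Array measures were compared with exact permutation tests (scipy 1.17.1). Tested on simulated data with 200 changed genes of 9295, the fit recovered 70% of 1.2-fold, 98.5% of 1.5-fold and 98.5% of 2-fold changes, and 7.3%, 6.6% and 4.4% of its calls were false. The simulation held no spread shared between genes.

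The groups, members and lists were chosen with earlier results of these data known. Genes named are the 15 largest rises and falls (no unnamed clones), up to 6 called members per list and direction, a panel of heart, diet and stress genes, cell type markers, the 10 widest gaps between the diets per direction, the 5 smallest adjusted p-values per contrast with smoke, the 5 called genes whose probe sets differ most, and regulators of the lists. Chosen outside it after values were seen were Neat1 and, for their promoters, Hspe1. Promoter sequences are RefSeq's, 250 bases before the gene start, for 7479 of the genes tested. The alternatives, 33 planned and 5 added after seeing the data, are other filters, probe set rules, eBayes settings, array weights, scalings, replicate blocks, number ranges of the labels, covariates and arrays left out.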

Additional observations from a re-analysis of the deposited data

Results flagged for a closer look

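Some single arrays lay far from the other 7 of their group. Dixon's ratio of gap to range passed its 95% critical value in 10 of 102 groups of values tested, where chance gives about 1 in 20. Acot1 stood at 7.37 in regular diet mouse 8 and at 8.55 in high-fat mouse 3, both above their groups. Rbp7 stood at 8.25 in high-fat mouse 8, below its group.

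The mean of the T cell markers, relative to all arrays, was 0.23 in regular diet mouse 1 and 1.21 in high-fat mouse 2, and that of the B cell markers was 2.35 in regular diet mouse 1 and 0.52 in high-fat mouse 8. High-fat mouse 5 had the lung epithelium markers at 0.89, and high-fat mouse 2 had the mesothelium markers at 1.22. High-fat mouse 2 also correlated least with the mean of its group, at 0.9926.

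The diet difference was not the same in air and under smoke for 21 genes (mainstream) and 2641 genes (sidestream) by limma's test of that contrast. Among the genes of largest change in air, the contrast of smoke minus air passed for Hspa1b (-1.71 mainstream, -1.95 sidestream), Hspa1a (-1.39 and -1.29), Cyp1a1 (1.63 and 0.88) and Cth (0.86 and 0.71). It passed for Sgk1 (-0.45) and Rsrp1 (-0.37) under sidestream smoke.

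Probe sets that match several genes or none, which enter no comparison above, also separated the diets. Tested apart, 264 of 1247 (21.2%) passed limma's threshold, 126 higher and 138 lower on the high-fat diet.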

How the results depend on the processing

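Of the 1882 genes called, 1806 kept their sign in all 38 alternatives that tested them and 1239 (65.8%) were called without any 1 array. Of the 40 genes past 1.5-fold, 33 were called without any 1 array; Gpd2, Iigp1, Orm1, Pygl, Retn, Retnla and Thrsp were not, and the first 2 and Retnla were named after their values were seen. Leaving out 1 array at a time gave 1571 to 1869 calls in air, 536 to 668 higher and 1035 to 1227 lower, 16 to 32 for the mainstream contrast (32 without DIO-SC 8) and 2368 to 2649 for the sidestream contrast. Array weights gave 996 higher genes and 48 for the mainstream contrast. Lower genes numbered 823 after quantile normalization, which gave 1543 for the sidestream contrast, and 727 with arrays centred on their median. The red blood cell list as a covariate gave 1027 for the sidestream contrast, and the atrial list and Gapdh as covariates gave 38 and 37 for the mainstream one. With only the arrays numbered 01-06 in the labels the mainstream contrast had 10 genes. With only those numbered 19-20 (2 mice per diet in air) limma called 0 genes in air, in either direction, and 0 in each contrast, with 504, 860 and 654 at an unadjusted p under 0.05. Signs turned there for Per2 (-0.07) and Tsc22d3 (-0.02), and with the mean of all probe sets for Mfn2 (0.01) and Scaf11 (0.02).

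Of the alternatives added after seeing the data, leaving out RW-SC 1, 3 and 6 gave 1122 calls, 370 higher and 752 lower. Leaving out DIO-SC 2, 5 and 8 as well gave 722, 281 and 441, with 7 and 1522 for the 2 contrasts. The cause of these changes was not tested, beyond the smaller number of arrays. Title numbers did not pair the mice (1 of 8 pairs of deviations correlated above 0.1, and 0 of 16 arrays correlated best with their own number). With the number as a replicate block there were 1816 calls, 619 higher and 1197 lower, and with the number of the description as a replicate block 1795, 604 and 1191.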

Other observations

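A few further groups moved in part. Slc40a1, ferroportin, which exports iron from cells, had a median of 8.33 (highest 8.53) on the regular diet and 8.85 (lowest 8.74) on the high-fat diet, a rise of 0.51 (SE 0.08, limma adjusted p = 7.42e-06) without overlap. It was 1 of 2 of 18 iron genes that rose, and 2 fell. Tfrc, the transferrin receptor, differed by 0.20 (adjusted p = 0.46). Of 14 ABC and drug transporters 2 rose, among them Abca1, the cholesterol exporter, by 0.31, and 4 fell, with Abcb4, a phospholipid exporter, down by 0.37 (SE 0.05, adjusted p = 2.73e-06). Of 24 genes of TGF-β and BMP signalling 3 rose (6 after quantile normalization and 5 with each array centred), with Smad7, an inhibitor of the pathway, up by 0.31 (adjusted p = 4.45e-05), and 1 fell (Tgfbi, by 0.39).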
